A study of Arabidopsis thaliana with 9 samples.

Results

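The 4 loci described here are transposon-derived genes of Arabidopsis thaliana whose element type is known and which serve as targets of gene silencing: COPIA4 (AT4G16870), ATGP1 (AT4G03650), AtMu1 (AT4G03870) and LINE1-4 (AT2G01840). They were chosen by locus, and each is paired with 1 probe set, so that 4 of the 22746 tested probe sets of the Affymetrix ATH1 array belong to them. RNA came from seedlings of 3 genotypes, with 3 arrays each. The jmj24 mutant carries a disrupted AT1G09060 (JMJ24), a jumonji-family gene, and came from a stock centre. The 35S::JMJ24 line was made by Agrobacterium-mediated transformation and transcribes JMJ24 from the 35S promoter, which drives strong expression in most plant tissues. The controls are wild type of the accession Col-0 (WT). The seedlings were 9 days old by the extraction protocol, while the growth protocol gives 10 to 14 days. The labels do not say how many independent transgenic lines were used, or that the replicates were separate cultures, so the p-values below measure only the spread between these arrays, which may be technical.

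Transposons are normally kept silent in plants by DNA methylation and by methylation of histone H3, which are maintained by DNA methyltransferases, histone methyltransferases, small RNAs and chromatin remodellers. When this system fails, some elements are transcribed again and a few can move. The 4 loci stand for different ways of moving. COPIA4 is a copia-type and ATGP1 a gypsy-type retrotransposon with long terminal repeats, both of which copy themselves through an RNA that reverse transcriptase turns into DNA. LINE1-4 is a retrotransposon without such repeats. AtMu1 belongs to the Mutator-like DNA transposons, which are cut out and reinserted by a transposase and need no RNA copy. The study asked what JMJ24 does in transposon silencing, and the question at these loci is whether their RNA changes when JMJ24 is disrupted or over-supplied.

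The annotation used here pairs no probe set with JMJ24, so its level was not available to check the genotypes. Any 2 of the 9 arrays correlated between 0.992 and 0.998 over the tested probe sets. The plastid genes rbcL and psbA, markers of green tissue, had mean log2 signals of 12.45 and 12.24 over the 9 arrays.

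The deposited values were read as log2 of normalized probe set signals, and all levels and differences below are on that scale. Bacterial transcripts that a plant lacks served as the mark of background: 27 control probe sets for 5 genes of Bacillus subtilis, whose means lay between 3.11 and 5.80. The brightest, at 5.80, stood apart from the next, at 4.61, and the median was 3.71. The spiked hybridization controls, which were added to the sample and are not part of this mark, lay at 9.85 or above. Probe sets differ in how well they bind their target, so a signal shows whether a locus rises above the mark, and not how much RNA it makes relative to another locus.

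COPIA4 was the 1 locus of the 4 with a signal above the brightest bacterial control. Probe set 245449_at read 9.02, 9.02 and 9.34 in the jmj24 mutant, 8.58, 8.76 and 9.20 in 35S::JMJ24 and 9.03, 8.86 and 9.20 in WT. All 9 values lay above the brightest bacterial control of their own array, by 2.67 to 3.45, and above the array's median tested probe set. Its mean of 9.00 over the 9 arrays was higher than 66.9% of the tested probe sets. Among the 998 probe sets of annotated pseudogenes, the type that all 4 loci carry in the RefSeq table, it ranked 25 from the top, while 17.6% of those probe sets lay above the mark at all. A signal of this size was thus present in WT as well as in both JMJ24 lines. Related copies of the element could contribute to it, which was not tested.

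ATGP1 lay at background in every genotype. Probe set 255389_at read 3.82, 3.62 and 3.78 in jmj24, 3.64, 3.95 and 3.47 in 35S::JMJ24 and 3.47, 3.59 and 3.53 in WT. None of the 9 values reached the brightest control of its array, with values of -2.28 to -1.81 relative to it, and the mean of 3.65 exceeded 10 of the 27 bacterial controls. The signal of this gypsy-type element therefore cannot be told from that of probes with no target.

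AtMu1 was as dim. Probe set 255353_at read 3.77, 3.64 and 3.70 in jmj24, 3.98, 3.74 and 3.63 in 35S::JMJ24 and 3.74, 3.69 and 3.92 in WT. Its mean of 3.76 exceeded 16 of the 27 controls, and 0 of 9 arrays lay above the brightest. The 3 genotypes overlap, and the highest value belongs to a 35S::JMJ24 array.

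LINE1-4 came nearest to the mark of these 3. Probe set 263592_at read 4.48, 4.59 and 4.47 in jmj24, 4.31, 4.62 and 4.29 in 35S::JMJ24 and 4.29, 4.57 and 4.60 in WT. The mean of 4.47 exceeded 23 of the 27 controls, and again 0 of 9 arrays reached the brightest. Against the 95th percentile of the controls, a milder mark, 3 of 9 arrays lay above. For these 3 dim loci a log2 difference is a difference between signals near background and does not measure a ratio of transcripts.

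**Figure D1:**
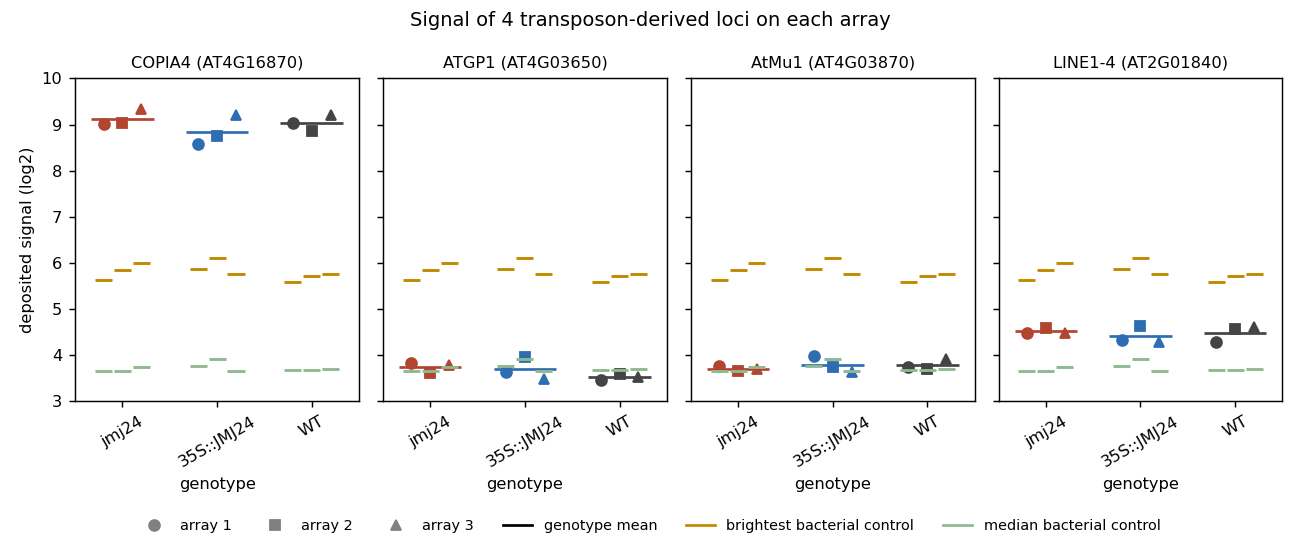
Deposited log2 signal of each locus on each array (symbols, by array number), with the genotype mean (coloured line) and, for the same array, the brightest and the median of 27 bacterial controls. COPIA4 lies 2.67 to 3.45 above the brightest control on all 9 arrays, and the other 3 loci lie below it on all 9.

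**Figure D2:**
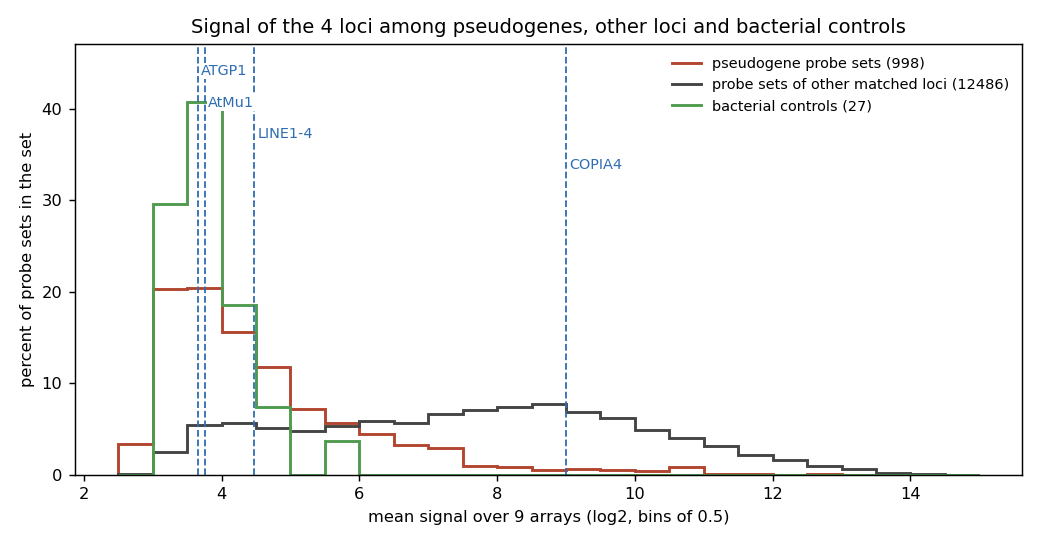
Share of probe sets (percent, vertical axis) by mean log2 signal over 9 arrays (horizontal axis, bins of 0.5) for 998 probe sets of pseudogenes, 12486 of other matched loci and 27 bacterial controls. ATGP1 (3.65), AtMu1 (3.76) and LINE1-4 (4.47) fall where the bacterial controls lie, and COPIA4 (9.00) falls among the bright probe sets.

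The comparison of jmj24 with WT asks whether loss of JMJ24 raises or lowers RNA of these targets. None of the 4 passed the test (limma over all probe sets, Benjamini-Hochberg adjusted p under 0.05), and 0 had an unadjusted p under 0.05. Over the array 259 probe sets passed, 1.14% of those tested, and 11.7% had an unadjusted p under 0.05. The median log2 difference of the 4 was 0.06, with 3 above 0. The 998 pseudogene probe sets had a median of 0.05 with 69.6% above 0, and all tested probe sets had 0.0061 with 52.1% above 0. For the 176 pseudogene probe sets above the mark the median was 0.075, with 68.2% above 0.

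COPIA4, the only member above the mark, averaged 9.13 ± 0.181 in jmj24 and 9.03 ± 0.173 in WT (SD, n = 3 each). The log2 difference was 0.10 (SE 0.162, adjusted p = 0.853 by limma), or 1.07-fold, with a 95% interval from 0.83-fold to 1.38-fold. The groups overlap. With its spread, a log2 difference of 0.83, or 1.78-fold, would have been needed to pass in this comparison. A smaller observed difference would not have passed at this standard error.

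ATGP1 is the only member whose values do not overlap between jmj24 and WT, a separation seen in 16% of tested probe sets. Every jmj24 array was higher than every WT array, with means of 3.74 ± 0.107 in jmj24 and 3.53 ± 0.064 in WT (SD, n = 3 each). The log2 difference was 0.21 (SE 0.116, 95% interval -0.05 to 0.47, adjusted p = 0.525 by limma). The two-sided exact permutation test gave p = 0.1, the smallest that 3 arrays against 3 allow. All 6 values lie within the range of the bacterial control means (3.11 to 5.80).

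AtMu1 had a log2 difference of -0.08 between jmj24 and WT (95% interval -0.30 to 0.14, adjusted p = 0.789 by limma). LINE1-4 had 0.03 (95% interval -0.22 to 0.28, adjusted p = 0.942 by limma). Both were near background in both genotypes, and their groups overlap.

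The comparison of 35S::JMJ24 with WT asks whether excess JMJ24 transcript affects the targets. Again 0 of 4 passed by limma and 0 had an unadjusted p under 0.05, beside 4 of all tested probe sets (0.0176%) that passed and 7.43% with an unadjusted p under 0.05. All 4 loci overlap between the genotypes, while 11.7% of tested probe sets do not. The median log2 difference of the 4 was -0.04, with 2 above 0, beside 0.05 and 68.7% above 0 for pseudogene probe sets and 0.02 and 57.1% for all tested probe sets. The 176 pseudogene probe sets above the mark did not share this tilt, with a median of -0.0085 and 46.6% above 0.

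COPIA4 averaged 8.85 ± 0.320 in 35S::JMJ24 and 9.03 ± 0.173 in WT (SD, n = 3 each). The log2 difference was -0.18 (SE 0.162, adjusted p = 0.792 by limma), or 0.88-fold, with a 95% interval from 0.684-fold to 1.13-fold. With each array left out in turn the log2 difference ranged from -0.361 without the 35S::JMJ24 array numbered 3, the highest of its genotype, to -0.0497 without that numbered 1, the lowest. In this comparison a log2 difference of 1.44, or 2.71-fold, would have been needed to pass. ATGP1 differed by 0.16, AtMu1 by 0.0014 and LINE1-4 by -0.08, with adjusted p from 0.756 to 0.998 by limma.

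Set directly against each other, jmj24 and 35S::JMJ24 differed most at COPIA4. The log2 difference was 0.28 (SE 0.162, 95% interval -0.09 to 0.64, adjusted p = 0.878 by limma), and 95.3% of tested probe sets had a smaller one. It was 0.457 without the 35S::JMJ24 array numbered 3 and 0.146 without that numbered 1, the widest range with any array left out. The two-sided exact permutation test gave p = 0.3. The jmj24 array was higher than the 35S::JMJ24 array at each number, by 0.44, 0.26 and 0.13, yet the groups overlap. Neither test above uses these numbers. With the numbers as a replicate block the adjusted p was 0.395 by limma. None of the 4 loci separates these genotypes, while 10.2% of tested probe sets do. Of the other members, ATGP1 differed by 0.05, AtMu1 by -0.08 and LINE1-4 by 0.11, each with an interval that includes 0. Here 0 of 4 passed and 0 had an unadjusted p under 0.05, beside 0.246% of tested probe sets that passed and 6.33% with an unadjusted p under 0.05. The comparisons share arrays, so these values are not independent of those above.

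**Figure D3:**
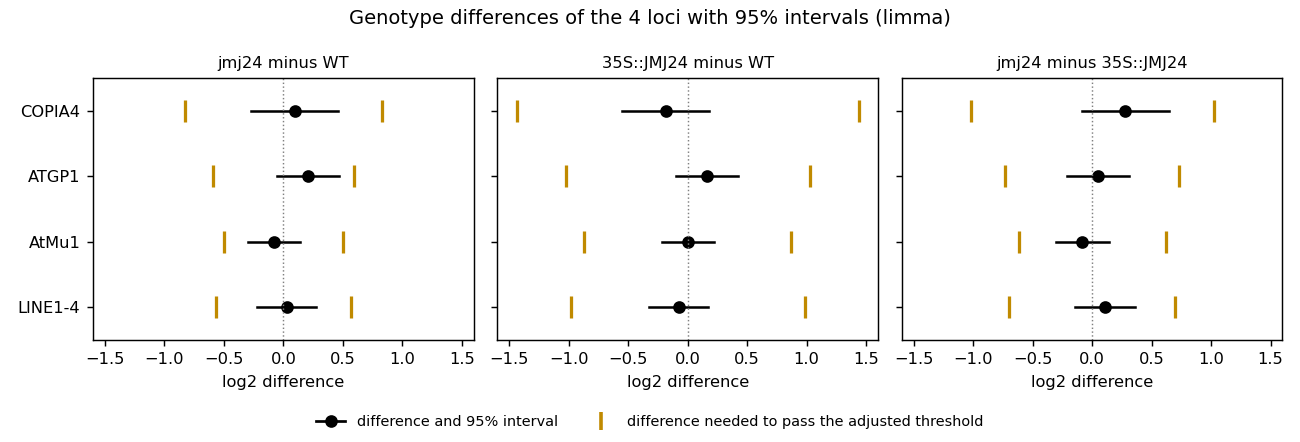
Log2 difference (point) with its 95% interval (line) for each locus in jmj24 minus WT, 35S::JMJ24 minus WT and jmj24 minus 35S::JMJ24, from limma on 9 arrays. Every interval includes 0, and no point reaches the difference needed to pass the adjusted threshold (upright ticks).

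At every member the arrays of at least 1 genotype spread more widely than the genotype means. For COPIA4 the genotype means spanned 0.28, from jmj24, the highest, down to 35S::JMJ24, the lowest, while arrays within a genotype spanned 0.316 to 0.623. Neither step in that order, jmj24 to WT or WT to 35S::JMJ24, exceeds this spread. The array numbered 3 was the highest of its genotype in jmj24, in 35S::JMJ24 and in WT. The within-genotype SD of COPIA4 was 0.235, larger than that of 93.8% of the 3312 probe sets within 0.5 of its level, whose median SD was 0.102. The SDs of ATGP1 (0.159), AtMu1 (0.128) and LINE1-4 (0.150) exceeded those of 78.8%, 54.6% and 52.8% of probe sets at their levels.

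The loci lie in different surroundings in the gene order of the RefSeq table (assembly TAIR10.1). Of the 20 loci on each side, 18 of 40 were pseudogenes around ATGP1 and 29 of 40 around AtMu1, against 2 of 40 around COPIA4 and 2 of 40 around LINE1-4. In the whole table the share was 12.7%. ATGP1 and AtMu1 are separated by 43 loci, of which 33 are pseudogenes. Of the 21 measured there, 4 lay above the mark of background, led by the pseudogene AT4G03750 at a mean of 7.05. None of the 21 passed in any comparison by limma, beside at most 1.14% of all tested probe sets in a comparison. The 2 dim members in this stretch stand among mostly dim probe sets. Of the 21 measured loci 18 are pseudogenes, and over the array 17.6% of pseudogene probe sets lay above the mark. Dimness is therefore not particular to this stretch.

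COPIA4 sits among protein-coding genes. The immune receptor genes RPP4 and SNC1 lie near it, and neither is measured under its name here. The nearest measured locus after COPIA4 in the order is AT4G16880, with 7.70, 7.23 and 6.94 in jmj24, 7.93, 7.11 and 7.06 in 35S::JMJ24 and 7.87, 7.49 and 7.23 in WT. Its array numbered 3 was the lowest of each genotype, the reverse of COPIA4, and over the 9 arrays the correlation between them was -0.59 (Pearson, a description only). It did not differ between jmj24 and WT beyond that spread (log2 difference -0.24, SE 0.267, adjusted p = 0.766 by limma). On the other side AT4G16850 had a mean signal of 7.77 over the 9 arrays and AT4G16840 one of 7.75. Of these, AT4G16840 had a log2 difference of 0.29 between jmj24 and WT with an adjusted p of 0.201.

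The nearest measured locus on each side of LINE1-4 is bright. EXGT-A3, which encodes an enzyme that cuts and rejoins xyloglucan in the cell wall, is the next locus, with a mean of 12.9 in jmj24, 13.0 in 35S::JMJ24 and 12.9 in WT. AT2G01820, the nearest measured locus on the other side, averaged 10.3. Of the 40 loci around LINE1-4, 19 were measured and 14 lay above the mark, whereas LINE1-4 did not. That count does not set the window apart, since 73.9% of all tested probe sets lay above the mark. None of the measured loci in any of the 4 windows passed in any comparison by limma. Over the array 1.14% of tested probe sets passed in jmj24 minus WT, 0.0176% in 35S::JMJ24 minus WT and 0.246% in jmj24 minus 35S::JMJ24. At such shares, windows of this size would hold few calls or none.

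**Figure D4:**
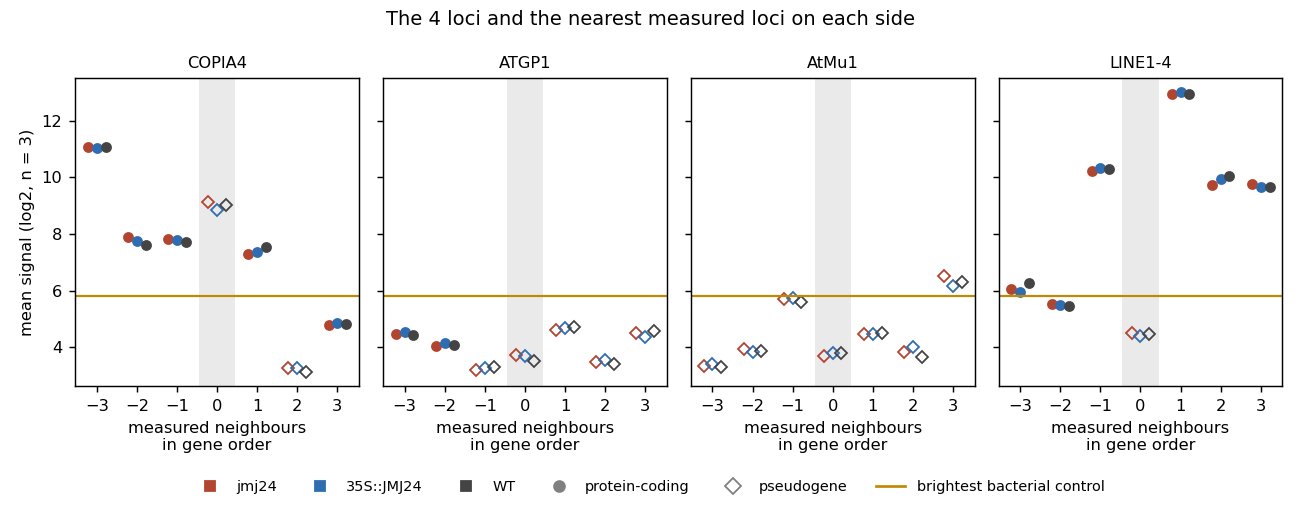
Mean log2 signal (n = 3 arrays) in jmj24, 35S::JMJ24 and WT for each of the 4 loci (grey band) and the 3 nearest measured loci on each side in gene order, with filled circles for protein-coding genes and open diamonds for pseudogenes. COPIA4 and most measured neighbours of LINE1-4 lie above the brightest bacterial control (5.80, horizontal line), while LINE1-4 itself, ATGP1 and the neighbours of ATGP1 lie below it.

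Probe sets of named loci above the mark were searched for patterns like those of the members, by Pearson correlation over the 9 arrays. For COPIA4 the closest of 9316 were AT1G15730 (r = 0.95), AT1G66660 (r = 0.93) and SECA2 (r = 0.93), which encodes a protein translocation ATPase of the plastid. All 3 had their array numbered 3 highest in jmj24 and in 35S::JMJ24, and AT1G66660 and SECA2 also in WT, and their log2 differences between jmj24 and WT were 0.03, 0.01 and 0.0094. The closest to ATGP1 was AT5G11420 (r = 0.98), to AtMu1 AT1G76810 (r = 0.96) and to LINE1-4 AT4G20000 (r = 0.91). With so many candidates and 9 arrays, the best match is high for any probe set, also for one at background.

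Of 15 other silencing-sensitive loci in a list, 2 were measured under a name, of which 1 fell in jmj24 against WT and 0 rose, beside 1.14% of tested probe sets that passed there in either direction. The list was chosen with earlier results of these data known, so its count cannot be weighed against that share. CACTA1 (AT2G12210), a DNA transposon of the CACTA type, lay at 2.85 ± 0.093 in jmj24, 2.85 ± 0.066 in 35S::JMJ24 and 2.79 ± 0.050 in WT (SD, n = 3 each), below all 27 bacterial control means. QQS (AT3G30720), an Arabidopsis gene that DNA methylation can repress, read 7.60, 7.29 and 7.90 in jmj24, 8.97, 9.11 and 8.53 in 35S::JMJ24 and 8.48, 8.41 and 8.72 in WT. It fell in jmj24 against WT by 0.94 on the log2 scale (SE 0.181, adjusted p = 0.0471 by limma). With each array left out in turn, that call was lost 7 times of 9, without any array except jmj24 3 and 35S::JMJ24 3, with adjusted p up to 0.148, and over all 9 the log2 difference lay between -1.09 and -0.79. QQS was also lower in jmj24 than in 35S::JMJ24, by a log2 difference of -1.27 (adjusted p = 0.0283 by limma), a call lost 6 times of 9 (all but without jmj24 3, 35S::JMJ24 3 or WT 3), with adjusted p up to 0.152. In 35S::JMJ24 the log2 difference of QQS from WT was 0.33 (adjusted p = 0.695 by limma). Of 43 genes of the silencing machinery, 2 were measured under a name and 0 passed in any comparison by limma, nor had an unadjusted p under 0.05. DME, a glycosylase that removes methylated cytosine, had log2 differences between jmj24 and WT of -0.12, 0.12 and -0.11 at its 3 probe sets. The probe set with 0.12 had a mean of 3.82 over the 9 arrays, below the mark. The others, with means of 6.75 and 8.21, lay above it. LDL2, which is related to a histone demethylase, had 0.20 (adjusted p = 0.517 by limma).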

How the data were processed

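Affymetrix ATH1 arrays of 9 seedling samples were analysed, 3 for each of jmj24, 35S::JMJ24 and WT, grouped by sample title. The authors used affy, per the submitters' processing notes. Its version and settings (background, normalization, probe summary) were not given in the sources used here. No source names the scale. The deposited values, between 2.63 and 14.7 with array medians between 7.83 and 7.87, were read as log2 and used unchanged.

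Of 22810 probe sets 64 are array controls; the other 22746 were tested. The platform's gene table, brought up to date with RefSeq's for TAIR10.1 (for names, gene types and gene order only), names 1 gene for 13513, several for 503 and none for 8730. Sequences and coordinates were not used here. limma 3.58.1 in R 4.3.3 was fitted to all 9 arrays with 1 mean per genotype (6 residual and 3.34 prior degrees of freedom), two-sided, with Benjamini-Hochberg adjustment over all tested probe sets in each comparison. The difference needed to pass is the smallest that would reach the largest p that passed, at the standard error of the locus. The fit was tested on simulated data.

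The members and the gene lists were chosen with earlier results of these data known. Named are the 4 members, measured members of the lists (up to 6 a list), the 3 best correlated loci of a member above background and 1 of each dim one, and the 3 nearest measured loci on each side; the text gives those that matter most. AT4G03750 was named after its value was seen. Pseudogenes of the same element type could not be counted, since the annotation used here names no element type. Of the marker lists, 2 of 10 green tissue genes, 0 of 5 pollen genes and 0 of 8 seed genes were measured under a name. Replicate numbers pair arrays of jmj24 and 35S::JMJ24 by their deviations from the genotype means (correlations over probe sets of 0.427, 0.173 and 0.171), as a pattern in the data that the labels do not state. Alternatives were renewed quantile normalization, median centring, a filter on dim probe sets, only the 6 arrays compared, the replicate block, array weights, a variance trend, each array left out, and the arrays numbered 1 left out.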

Additional observations from a re-analysis of the deposited data

How the results depend on the processing

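None of the 4 loci passed under any of the 17 alternatives in any comparison (195 values in all, smallest adjusted p = 0.356 by limma), and 180 of the 195 kept the sign of the reported log2 difference. ATGP1, AtMu1 and LINE1-4 have no value when the dimmer 50% of the array is removed. The sign turned for LINE1-4 in jmj24 minus WT with renewed quantile normalization (-8.38e-05), array weights (-0.0362) and the 3 arrays numbered 1 left out (-0.0546). It turned for AtMu1 in 35S::JMJ24 minus WT with renewed quantile normalization (-0.0543), median centring (-0.0172) and the arrays numbered 1 left out (-0.115), and for ATGP1 in jmj24 minus 35S::JMJ24 with those arrays left out (-0.0127). With each array left out in turn, jmj24 minus WT ranged from -0.00884 to 0.182 for COPIA4 (below 0 without jmj24 3) and from -0.06996 (without WT 1; also below 0 without jmj24 2) to 0.0864 for LINE1-4. AtMu1 ranged from -0.0953 to 0.0777 in 35S::JMJ24 minus WT and from -0.158 to 0.0152 in jmj24 minus 35S::JMJ24, and ATGP1 from -0.057 to 0.185 in jmj24 minus 35S::JMJ24. The causes were not tested.

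The number of probe sets called over the array moved more. In jmj24 minus WT it was 259, and it was 146 with only the 6 arrays compared, 641 with array weights, 53 without the arrays numbered 1, and 124 to 229 with each array left out. In 35S::JMJ24 minus WT it was 4, against 8 with array weights, 1 without the arrays numbered 1, and 2 to 4 with each array left out. In jmj24 minus 35S::JMJ24 it was 56, against 19 with only the 6 arrays, 2 without the arrays numbered 1, and 14 to 44 with each array left out. With the replicate block the counts were 607, 4 and 76 in the same order of comparisons. The block changed no call of a member: COPIA4 had adjusted p of 0.67, 0.489 and 0.395 by limma with the block. Same-numbered arrays correlated in their deviations by 0.0143 to 0.438 over the comparisons with WT. At numbers 1 and 3 these correlations were higher than those between differently numbered arrays. At number 2 they were not: 0.0577 against -0.28 to 0.271 in jmj24 minus WT, and 0.0143 against -0.221 to 0.235 in 35S::JMJ24 minus WT. The numbers were therefore not taken as pairs there, but a shared batch at numbers 1 and 3 was not tested. LINE1-4 lay above the 95th percentile of the bacterial controls on 3 arrays, against 0 above the brightest.

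Signal over background limits 3 of the 4 loci, whose signal did not rise above the brightest bacterial control on any array.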
